A study of Mus musculus with 12 samples.

Results

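The peaks described here are the H3K4me3 intervals that lay away from the protein-coding starts of a basic annotation and free of H3K27ac, referred to below as distal H3K4me3 peaks. They were chosen by measured values, the peak calls of both marks, together with the gene annotation. An interval had to be present in the H3K4me3 lists of both oxygen levels, to be under 5000 bp wide, to lie over 1000 bp from the transcription starts of all coding genes (GENCODE M21, basic set, mm10), and to have no H3K27ac peak of either oxygen level overlapping it or within 1000 bp. In all, 832 of 14609 distinct H3K4me3 intervals met the rule. The name refers to the basic set only, since 271 of the 832 lay within 1000 bp of a coding start found in the comprehensive GENCODE set or in RefSeq. For GENCODE, a coding start here means the start of any transcript of a coding gene, also of transcripts that are not translated. For RefSeq it means the start of an mRNA, and 190 of the 832 lay within 1000 bp of one.

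The chromatin came from mesenchymal stem cells (MSCs), stromal cells able to form bone, cartilage and fat, of C57BL6/N mice aged 3 to 5 months. The labels call them bone-marrow MSCs, and the study's methods describe cells grown out of collagenase-treated hind-limb bone and sorted as CD45-/TER-119-/Sca-1+/CD140a+. All cells were expanded at 2% oxygen, and the sorted cells were then kept either at 2% oxygen (hypoxia) or at 21% oxygen (normoxia) for a week. ChIP-seq, which recovers the DNA attached to a modified histone, gave 2 libraries for H3K27ac, 2 for H3K4me3 and 2 inputs at each oxygen level, 12 in all, and the authors made 1 peak list from both libraries of a mark at an oxygen level. The inputs have no list of their own.

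Trimethylation of lysine 4 of histone H3 marks the promoters of active genes and also of many silent ones, and acetylation of lysine 27 is found at active promoters and enhancers. In mammals H3K4me3 is known to follow CpG islands, stretches of sequence that have kept a high density of unmethylated CG dinucleotides. Proteins with a CXXC domain bind unmethylated CpG and belong to the complexes that write this mark. CpG islands away from annotated promoters are called orphan islands and are often found at the starts of non-coding RNAs or inside genes.

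The files hold no read counts and no value per library, so depth and replicate spread were not analysed here. Shares are therefore given with 95% Wilson intervals, which take in counting error alone and treat neighbouring peaks as independent, which they may not be. No test was run. As a check on the cells, H3K4me3 in both lists lay within 1000 bp of a start for 15 of 18 MSC marker genes, 12 of them with H3K27ac as well. The exceptions were Dcn, Lum and Ly6a, the last of which encodes the sorting marker Sca-1. Among 22 marker genes of blood and endothelial cells, 3 had H3K4me3 at a start and 0 had both marks. Of all coding genes, 58.9% had H3K4me3 at a start and 36.5% had both marks. No gene of either marker list had a distal H3K4me3 peak in its span or within 1000 bp of it, and 1.79% of all coding genes had one, a share at which few or none would be counted in lists of this size.

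The sequence of the distal peaks is shown first, because most of them were CpG-rich. In each peak selected by score or by a known non-coding gene, the stretch of 150 bases with the most CpG is printed from the plus strand of GRCm38.p6, with each CpG in capitals. The first set holds peaks at the start of a non-coding gene. Terc is the RNA template of telomerase, Mir155hg carries the precursor of miR-155, a regulator of immune cells, and Kcnq1ot1 is the imprinted antisense RNA that silences neighbouring genes on the paternal chromosome. Mir124a-1hg hosts a copy of the neuronal miRNA miR-124. The antisense genes Gm49442 and 5330438I03Rik start inside peaks that overlap exons of Dhh, which encodes a hedgehog ligand, and of Ildr2.
Terc, chr3:96414512-96414661: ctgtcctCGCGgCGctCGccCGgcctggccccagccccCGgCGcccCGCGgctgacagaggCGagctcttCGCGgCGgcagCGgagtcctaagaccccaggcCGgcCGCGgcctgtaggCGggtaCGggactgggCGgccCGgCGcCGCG
Mir155hg, chr16:84703309-84703458: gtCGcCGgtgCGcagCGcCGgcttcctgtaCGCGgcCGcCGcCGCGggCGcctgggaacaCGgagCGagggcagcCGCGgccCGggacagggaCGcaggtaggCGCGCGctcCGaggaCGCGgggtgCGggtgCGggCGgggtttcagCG
Kcnq1ot1, chr7:143295562-143295711: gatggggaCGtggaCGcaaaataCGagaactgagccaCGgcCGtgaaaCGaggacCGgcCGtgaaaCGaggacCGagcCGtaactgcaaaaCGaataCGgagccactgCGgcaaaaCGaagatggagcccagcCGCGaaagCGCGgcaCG
Mir124a-1hg, chr14:64587055-64587204: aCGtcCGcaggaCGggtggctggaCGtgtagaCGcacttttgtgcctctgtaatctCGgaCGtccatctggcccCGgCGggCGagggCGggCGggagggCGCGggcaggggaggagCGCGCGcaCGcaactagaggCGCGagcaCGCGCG
Gm49442 in Dhh, chr15:98894105-98894254: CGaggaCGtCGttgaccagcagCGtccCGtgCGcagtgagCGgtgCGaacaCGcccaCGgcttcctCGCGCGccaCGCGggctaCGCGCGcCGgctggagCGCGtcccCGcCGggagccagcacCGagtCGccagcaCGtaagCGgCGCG
5330438I03Rik in Ildr2, chr1:166308874-166309023: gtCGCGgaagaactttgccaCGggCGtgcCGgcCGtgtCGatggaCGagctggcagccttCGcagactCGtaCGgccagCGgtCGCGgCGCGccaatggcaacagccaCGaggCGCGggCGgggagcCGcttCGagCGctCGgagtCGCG
These 6 stretches held 24, 28, 20, 23, 29 and 26 CpG in the order printed. In Gm49442 and 5330438I03Rik all 150 bases were coding sequence of the host gene.

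The next set shows peaks without a non-coding start of the basic set. The peaks in Sh3d19 and in Pou2f2, an octamer-binding transcription factor of B cells, are labelled intron because they touched no exon of the basic set. Their centres lay at 0.246% and 0.245% of the gene span from its 5′ end, so they are at gene edges. The remaining peak lay between genes. Each of these peaks had a coding start of the wider annotations inside the interval or within 1000 bp.
Sh3d19 intron, chr3:85971259-85971408: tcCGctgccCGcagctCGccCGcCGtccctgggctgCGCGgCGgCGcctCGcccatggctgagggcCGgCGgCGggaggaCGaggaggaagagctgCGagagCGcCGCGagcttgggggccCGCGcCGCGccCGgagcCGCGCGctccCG
Pou2f2 intron, chr7:25179673-25179822: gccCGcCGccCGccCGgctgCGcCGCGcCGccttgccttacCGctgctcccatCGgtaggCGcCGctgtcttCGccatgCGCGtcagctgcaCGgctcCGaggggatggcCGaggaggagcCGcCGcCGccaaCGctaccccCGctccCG
intergenic, nearest coding start Mrgprb5, chr7:48137600-48137749: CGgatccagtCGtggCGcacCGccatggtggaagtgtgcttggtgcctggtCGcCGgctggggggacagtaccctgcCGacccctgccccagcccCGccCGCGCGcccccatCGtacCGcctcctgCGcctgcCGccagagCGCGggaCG
CpG numbered 27, 24 and 18 here. The last sequence comes from the most repeat-masked of the distal peaks, shown as the opposite extreme.
intergenic, nearest coding start Zfp825, chr13:74529465-74529614: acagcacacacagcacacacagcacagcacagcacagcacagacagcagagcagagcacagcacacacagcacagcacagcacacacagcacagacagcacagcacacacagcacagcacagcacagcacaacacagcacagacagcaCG
All of its bases were soft-masked and it held 1 CpG.

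CpG-rich sequence was present in most distal peaks. A window of 500 bp with at least 55% GC and an observed-to-expected CpG ratio of at least 0.65 occurred in 597 of 832, or 71.8% (95% interval 68.6 to 74.7). The share was 70.2% (65.9 to 74.2) of the 467 peaks that met the same distance and width limits but overlapped H3K27ac, and 86.0% (85.0 to 87.0) of the 4642 peaks within 1000 bp of a coding start without H3K27ac. The interval of the distal peaks thus overlapped the former and lay below the latter. In the genome cut into tiles of 2000 bp, the most frequent width of the distal peaks, 1.53% of tiles had such a window. Among tiles that met the distance rules and overlapped no H3K4me3, the share was 0.398%.

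The median density was 3.65 CpG per 100 bp in the distal peaks, with quartiles of 2.75 and 4.93, against 0.65 in the tiles and 3.8 at coding starts without H3K27ac. Density ranged from 0 to 12.3 CpG per 100 bp over single peaks. Median GC content was 54.0%, against 41.3% in the tiles. The 235 peaks without a CpG-rich window still had a median of 2.2 CpG per 100 bp.

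**Figure D1:**
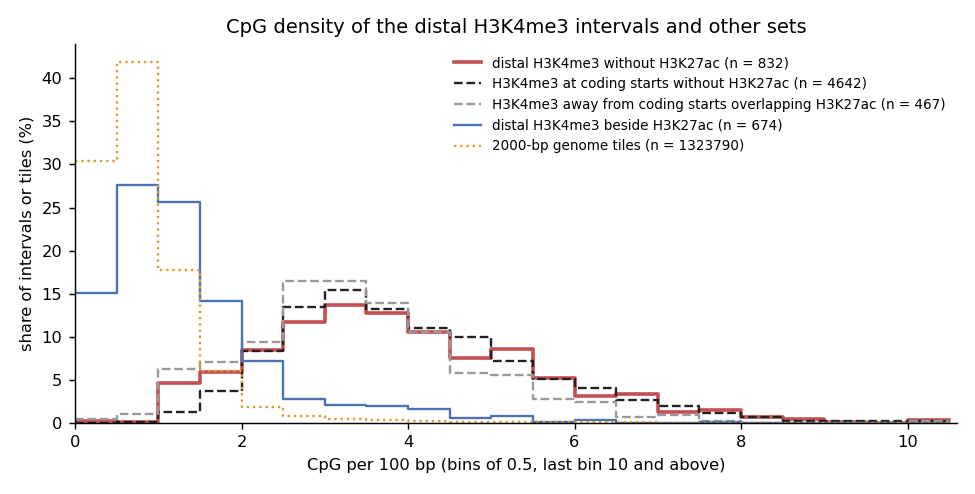
CpG per 100 bp (x axis, bins of 0.5) against the share of intervals or 2000-bp genome tiles in each bin (y axis, %), with 1 line per set. The 832 distal peaks follow the peaks at coding starts, with medians of 3.65 and 3.8, while the 674 intervals beside H3K27ac (median 1.0) lie near the tiles (median 0.65).

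CpG density was highest near the centre of the distal peaks. Within 500 bp of the centre, it averaged 5.7 CpG per 100 bp for the 249 peaks at a non-coding start and 6.58 for the 206 peaks at a coding start outside the basic annotation. The 79 peaks at a non-coding start outside the basic set averaged 4.85. Peaks without any annotated start averaged 6.8 inside coding genes (123 peaks) and 4.74 between genes (175 peaks). The value for peaks at coding starts without H3K27ac was 6.48. Between 2000 and 3000 bp from the centre these averages were 0.97 to 1.36. The depth of a peak could not be compared in this way, because no signal track was used.

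**Figure D2:**
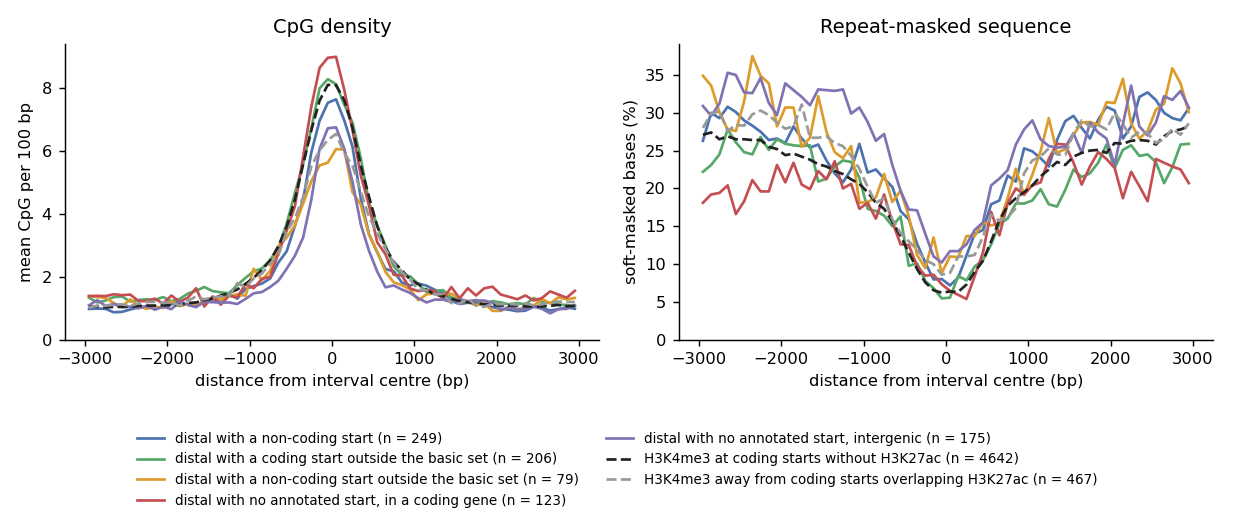
Mean CpG per 100 bp (left) and soft-masked bases in % (right) against distance from the interval centre in bp, in bins of 100 bp, for 5 groups of distal peaks (solid) and 2 other sets of peaks (dashed). CpG rises to between 4.74 and 6.8 per 100 bp within 500 bp of the centre in the distal groups, and masked sequence drops there.

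Soft-masked sequence took up little of the distal peaks. Soft-masking in the reference genome was used here as the record of repeats, and how the mask was made was not examined. Masked bases made up a median of 12.6% of a distal peak (quartiles 8.29 and 19.1). The median was 12.0% of a peak at a coding start without H3K27ac and 14.1% of a distal peak with H3K27ac. The tiles had a median of 27.4%, and 85 of the 832 distal peaks lay above that value. In 11 peaks, or 1.32%, over 50% of bases were masked, compared with 22.4% of tiles. Within 500 bp of the centre the masked share was 8.18 to 13.6% in the 5 groups named above, and 20.5 to 31.5% between 2000 and 3000 bp away. The authors called peaks with a minimum mapping quality for reads, and its effect on the masked share was not tested. The kind of repeat was not analysed here.

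The most masked peaks were a touching pair near Zfp825, chr13:74528501-74529000 with 98% and chr13:74529001-74530000 with 100% masked bases. Their deposited scores were 50 and 81, both in the lowest 25% of their chromosome. The next, chr19:11292501-11294000, had 62.1% masked bases and a score of 53. None of these 3 had an annotated start within 1000 bp or a CpG-rich window. Masked sequence was not limited to such peaks. The peak chr7:48136501-48139500 had 54.0% masked bases, a CpG-rich window and a score of 1000.

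Known starts were looked for next, since a peak over 1000 bp from the coding starts of the basic set may still lie at another kind of start. A start of a non-coding gene in the basic annotation lay within 1000 bp of 249 distal peaks, 29.9% (26.9 to 33.1), and inside the interval in 223. This share was 14.6% (13.6 to 15.7) at coding starts without H3K27ac, 40.9% (36.5 to 45.4) in distal peaks overlapping H3K27ac and 4.85% in the tiles. Coding starts that only the comprehensive GENCODE set or RefSeq gives were near 271 peaks, 65 of which also had such a non-coding start, leaving 206 (24.8%). Another 79 (9.5%) had only a non-coding start of those sources. No annotated start lay within 1000 bp of 298 peaks, 35.8% (32.6 to 39.1).

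**Figure D3:**
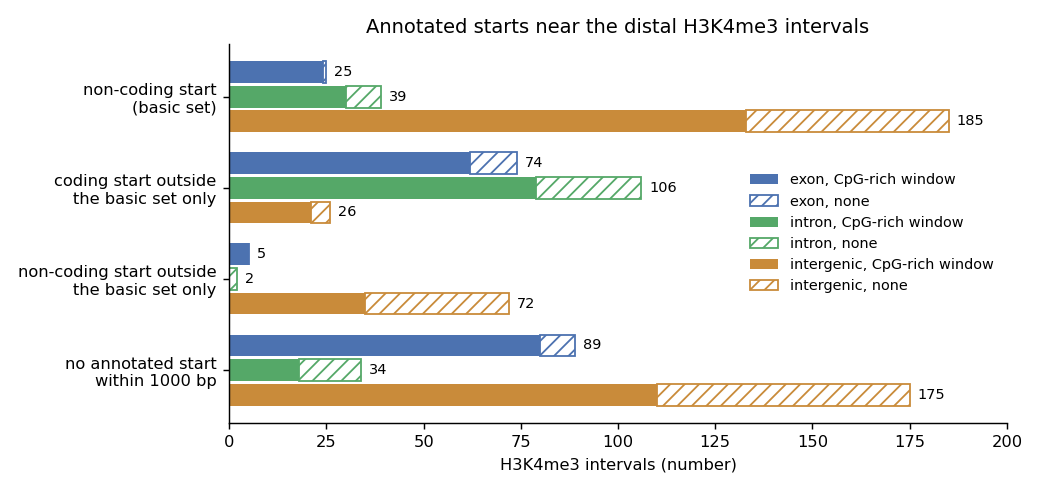
Number of distal H3K4me3 peaks (x axis) by the annotated start within 1000 bp (rows, each peak counted once, in the order listed) and by overlap with an exon, an intron or gene edge only, or no coding gene (colours). Filled parts hold a CpG-rich window and hatched parts do not, and the 298 peaks without any annotated start include 208 filled.

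Peaks with no annotated start were also mostly CpG-rich. A CpG-rich window was found in 208 of 298, or 69.8% (64.4 to 74.7), against 75.1% (69.4 to 80.1) of peaks at non-coding starts. Their share was 78.6% (72.5 to 83.7) for peaks at a coding start outside the basic set and 50.6% (39.8 to 61.4) for the 79 at a non-coding start of the wider sources only. The first 3 of these intervals overlapped in part, and the last lay below them.

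The farthest peaks from any start were chr1:14506001-14507500, 194966 bp away on the side of Eya1, an eye and kidney regulator, then chr8:32292501-32294000 in an intron of Nrg1, a growth factor gene, and chr1:22532501-22535000 over an exon of Rims1, a synaptic scaffold gene, at 106356 and 99658 bp. Their scores were 65, 76 and 128, all in the lowest 25% of their chromosomes. The Eya1 and Rims1 peaks held a CpG-rich window, with 4.73 and 5.44 CpG per 100 bp, and the Nrg1 peak had 2.27 CpG per 100 bp and no such window.

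Each of the 249 peaks at non-coding starts was assigned a gene within 1000 bp. A listed non-coding or imprinted gene came first, then the nearest, with a long non-coding RNA taken first at equal distance. The assigned gene was a long non-coding RNA in 154, a pseudogene in 64, a small RNA in 16 and an unconfirmed transcript model (TEC) in 15. A peak with starts of several types was thus counted under a single type, and the peak at Mir137 counted as a long non-coding RNA. Long intergenic RNAs formed the largest type, with 86 peaks, and antisense RNAs and processed pseudogenes had 36 each. Processed pseudogenes are copies of mRNAs inserted elsewhere in the genome, and 32 of those 36 peaks held a CpG-rich window. Over the 33499 non-coding genes of the annotation, 0.902% had a distal peak within 1000 bp of a start.

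A list of 96 known non-coding genes, of which 82 were found by symbol in the annotation, had 10 with a distal peak at a start. These were Terc, Mir155hg, Kcnq1ot1, Epb41l4aos, Mir124a-1hg, Firre, Evx1os, Jpx, Miat and Rmst. H3K4me3 of any kind lay at a start of 58 of the 82 genes, with H3K27ac beside it in 42. Of 57 imprinted genes, Kcnq1ot1 was the one with a distal peak at a start. The rule excludes coding starts of the basic set, so the coding genes among the 57 could not have such a peak. Firre and Jpx are X-linked RNAs with roles in nuclear organisation and X inactivation, Rmst acts with Sox2 in neurons, and Miat is an RNA linked to heart disease and neurons.

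The peaks at these genes had scores from 64 to 1000 and CpG densities of 2.55 to 5.8 per 100 bp. The Terc peak, chr3:96413501-96415500, had a score of 1000, 4.2 CpG per 100 bp and its nearest H3K27ac 72000 bp away. At Mir155hg, chr16:84702001-84704500, the score was 144 with 4.32 CpG per 100 bp. The Kcnq1ot1 peak, chr7:143294001-143297500, lay in an intron of Kcnq1 and had a score of 142 and 3.17 CpG per 100 bp. All 3 were above the lowest 25% of their chromosome.

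The widest of them, chr14:64586501-64591000 at Mir124a-1hg, spanned 4500 bp with a score of 108. The Epb41l4aos peak, over an exon of Epb41l4a, had a score of 127. Lower scores were found at Firre (101), Evx1os (82), Jpx (81), Miat (69) and Rmst (64), each of them in the lowest 25% of its chromosome, as was the Mir124a-1hg peak. Of the 10 peaks, the one at Firre lacked a CpG-rich window, with 2.55 CpG per 100 bp. H3K27ac was farthest from Rmst, at 558000 bp.

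miRNA genes made up 11 of the 16 small RNAs assigned in this order, which leaves out miRNA genes in peaks assigned to another type. The RefSeq table of 1005 hairpins placed 13 inside 8 distal peaks, and 7 of these peaks held a CpG-rich window. Their mature miRNAs are shown for well-studied members, taken from RefSeq for GRCm38.p6, with the seed (bases 2 to 8), which pairs with target mRNAs, in capitals.
miR-9-5p, hairpin chr3:88215598-88215686 on the plus strand: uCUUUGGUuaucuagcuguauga
miR-129-5p, hairpin chr2:94241364-94241453 on the minus strand: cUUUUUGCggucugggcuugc
miR-137-3p, hairpin chr3:118433857-118433929 on the plus strand: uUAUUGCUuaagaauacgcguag
miR-148a-3p, hairpin chr6:51269812-51269910 on the minus strand: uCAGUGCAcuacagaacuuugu
miR-203-3p, hairpin chr12:112130880-112130955 on the plus strand: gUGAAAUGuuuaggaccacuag
The 25 mature sequences of these hairpins had 25 different seeds, although this count leaves out the miR-124 loci named below, which are not in that table. miR-9, miR-129 and miR-137 are known from neurons, miR-203 from skin and miR-148a from liver and immune cells. The peaks had scores of 71 at Mir9-1, 123 at Mir129-2, 109 at Mir137, 125 at Mir148a and 133 at Mir203. GENCODE also places Mir124a-1 and Mir124a-3, both genes of miR-124, in distal peaks, the latter in chr2:180891501-180895000 with 7.49 CpG per 100 bp and a score of 135.

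The place of the distal peaks in coding genes was described by overlap with the gene span. A coding gene overlapped 374 of 832 peaks, 45.0% (41.6 to 48.3), and 278 lay wholly inside a span. The tiles gave 40.5% overlapping a coding gene, or 37.3% among tiles that met the distance rules without H3K4me3. The share depended on the annotation. When the rule used the coding starts of the comprehensive set, 29.3% (25.9 to 32.9) of 648 peaks overlapped a coding gene. With RefSeq added it was 28.2% (24.6 to 32) of 561. The tiles were filtered by the basic starts only, so neither of these shares has a matching tile value. An exon was touched by 193 peaks of the main rule, 23.2% (20.5 to 26.2), compared with 10.4% of tiles that met the distance rules without H3K4me3. Coding sequence was covered in 184 of the 193 and untranslated exon alone in 9. The other 181 peaks within genes touched no exon of the basic set and lay in introns or at gene edges.

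Exonic peaks were the most CpG-rich, with a CpG-rich window in 88.6% (83.3 to 92.4), against 70.2% (63.1 to 76.4) in introns or at gene edges and 65.3% (60.8 to 69.5) between genes. Median density was 4.64, 3.6 and 3.4 CpG per 100 bp in the same order. No annotated start was near 89 of the 193 exonic peaks.

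Peaks were most numerous in the end segments of the genes they overlapped. Each span was cut into 10 equal segments from the 5′ to the 3′ end. The first segment was given 83 of the 374 peaks (22.2%), the last 67 (17.9%) and the ninth 49 (13.1%). A peak centre beyond an end of the span was placed in the segment at that end. The first and last counts can therefore include peaks that only reach over a gene edge, and these were not counted apart. The segments between had 20 to 31 each. At the 5′ end, 3 of 83 peaks touched an exon and 60 lay near a coding start that the basic annotation leaves out. At the 3′ end, 60 of 67 touched an exon and 37 had no annotated start.

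**Figure D4:**
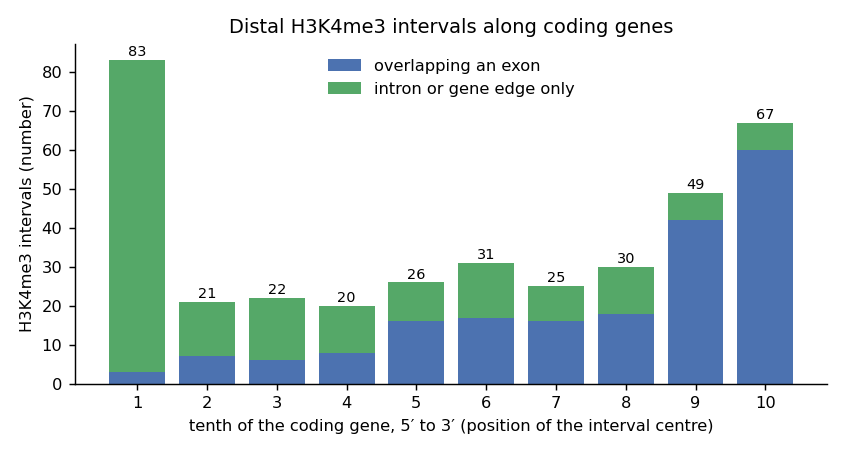
Number of distal H3K4me3 peaks (y axis) in each of 10 equal segments of the coding gene they overlap, ordered from the 5′ to the 3′ end (x axis, by interval centre). Centres beyond an end of the gene are placed in the segment at that end. Bars are split by overlap with an exon, and the first (83) and last (67) segments are the tallest, with 3 and 60 exonic peaks.

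The peaks lay in 354 genes with a median length of 52334 bp, against 17403 bp for all 21951 coding genes, and 19 genes held over 1 peak. Abr, which encodes a regulator of small GTPases, held 3. Bcor, a Polycomb-associated repressor, Tet1, an enzyme that oxidises 5-methylcytosine, and Pax5, a B-cell transcription factor, held 2 each. At their own starts, 57.6% of the 354 genes had H3K4me3, near the 58.9% of all coding genes. Both marks were at a start in 18.1% of the 354 genes, compared with 36.5% of all coding genes, and H3K4me3 without H3K27ac in 39.5%, compared with 22.4%. The rule left out peaks with H3K27ac within 1000 bp, so these differences in H3K27ac are not independent of the choice of peaks.

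Of the peaks inside genes without a non-coding start of the basic set, the 4 highest by score and width all scored 1000. Those in Sh3d19 (chr3:85970001-85973000), Pou2f2 (chr7:25178001-25181000) and Sipa1l3 (chr7:29517001-29520000) lay at the 5′ end of the gene span and touched no exon of the basic set. The other lay over an exon of Baiap2l2 (chr15:79260001-79263000). Each of the 4 had a coding start of the wider sources within 1000 bp. Between genes, peaks of the corresponding rank were chr7:48136501-48139500, chr1:165281001-165283500 near Gpr161 and chr7:27803501-27806000 near Zfp626. Each of these again had a coding start of the wider sources within 1000 bp. The Zfp626 peak had no CpG-rich window, at 2.32 CpG per 100 bp. At non-coding starts, the peaks in Dhh (chr15:98893001-98896500) and Ildr2 (chr1:166308001-166310500) were joined by chr1:170254001-170256500 at the pseudogene Gm6345 and chr3:83788501-83791000 at the antisense RNA Gm26771.

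Genes of developmental transcription factors, which specify tissues in the embryo, were counted from a list. Of 230 listed factors, 22 had a distal peak in the span or within 1000 bp of it, 9.57% (6.4 to 14.1), against 1.79% of all coding genes, although the median listed gene was 7308 bp long. They included Esrrg, Evx1, Evx2, Gata4, Gli2, Lhx6, Meis1, Neurod1, Nkx2-2, Osr1, Pax5, Phox2a, Pitx1, Pitx3, Sox5, Tbr1, Tbx2, Tbx3, Tfap2a, Vax1 and Zic4. At their own starts, 12 of the 22 had H3K4me3, 4 of them with H3K27ac (Meis1, Osr1, Pitx1 and Tbx3), and 10 had none. Over the whole list, 155 of 230 had H3K4me3 at a start and 61 both marks. Among all coding genes, 58.9% had H3K4me3 at a start and 36.5% both marks. The rule left out peaks near H3K27ac, so the H3K27ac count of the 22 is not independent of the choice of peaks.

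Genes of bone, cartilage and fat were counted in the same way. Plin1, a lipid droplet protein gene, Sost, which encodes the Wnt inhibitor sclerostin, and Sox5, a cartilage factor, were the 3 of 49, 6.12% (2.1 to 16.5), against the same 1.79% of all coding genes. Both lists together had 26 distal peaks, 25 of which held a CpG-rich window. The exception was the peak at Osr1, a factor of early mesenchyme, with 2.4 CpG per 100 bp.

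The 6 peaks at these genes with the highest deposited scores are given as examples, and their scores are not comparable between chromosomes. The first, chr6:144780501-144783000, lay at the 5′ end of the Sox5 span but touched no exon of the basic set, with a score of 144. Others were chr1:187651001-187653000 in Esrrg, a nuclear receptor gene, with 141, and chr11:85842001-85845500 beside Tbx2, a T-box factor gene, with 135. Pitx3, a lens and midbrain factor, had a peak over an exon, chr19:46135001-46138000, with a score of 133. The Sost peak, chr11:101963001-101965000, also touched an exon and scored 132. Zic4, a factor of the cerebellum, had an intronic peak, chr9:91380501-91382500, with 129. CpG density in these 6 was 4.84, 4.15, 4.54, 5.1, 5.15 and 4.85 per 100 bp in that order. The distance to H3K27ac ran from 18000 bp at Sost to 867000 bp at Zic4.

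Short motifs known from CpG-island promoters were searched on both strands, and none of the strings contains another. GGGCGG, bound by SP and KLF factors, occurred in 85.6% of distal peaks, 91.9% of peaks at coding starts without H3K27ac, 86.1% of distal peaks with H3K27ac and 15.4% of tiles. CCGGAAG, an ETS-family motif, occurred in 24%, against 31.1% at coding starts without H3K27ac and 5.31% of tiles. The cAMP response element TGACGTCA was found in 1.68% (1.0 to 2.8) of distal peaks, 4.35% at those coding starts, 7.07% of distal peaks with H3K27ac and 1.07% of tiles. For CGCATGCG, bound by NRF1, the corresponding values were 2.88%, 4.46%, 5.35% and 0.379%. The CTCF consensus matched in 0.721% (0.331 to 1.56) of distal peaks, 0.754% at those coding starts, 2.14% of distal peaks with H3K27ac and 0.511% of tiles. Apart from the CTCF consensus, each of these strings contains CpG, which was denser in the distal peaks than in the tiles. The effect of base composition on these shares was not tested. Peaks of the other sets had a median width of 2500 bp, against 2000 bp here, and a match says nothing about binding.

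Comparison of the oxygen levels was limited by the lists. Presence in both lists was part of the rule, so it is no finding, and the score of each of the 832 peaks was the same in hypoxia and in normoxia, as it was for all 14600 shared intervals. The score therefore holds no contrast between 2% and 21% oxygen. Intervals in the list of 1 oxygen level only numbered 9, or 0.0616% of 14609, with 6 in hypoxia and 3 in normoxia. All 9 met the width, coding-start and H3K27ac parts of the rule, whereas 5.7% of shared intervals did. They were 1.07% of the 841 intervals that met those parts. Of the 9, 1 held a CpG-rich window, the median density was 1.2 CpG per 100 bp and the median masked share was 19.6%. Their scores ran from 52 to 130.

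The ceiling of the score differed between chromosomes, so scores were compared within chromosomes. Only the choice of peaks named as highest used the score as deposited, which favours chromosomes that reach 1000. A score of 1000 was reached by 86.9% of all shared H3K4me3 intervals on chromosome 15 and 62.4% on chromosome 3, but by 0% on chromosome 2. Distal peaks had scores from 50 to 160 and, in 71 peaks, 1000. In 399 of 832, or 48.0% (44.6 to 51.4), the score lay in the lowest 25% of the shared intervals of its chromosome. The share was 17.9% at coding starts without H3K27ac, 34.5% of distal peaks with H3K27ac and 18.6% of all shared intervals. Only scores below the 25% point of a chromosome were counted, and tied scores kept the last share under 25%.

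**Figure D5:**
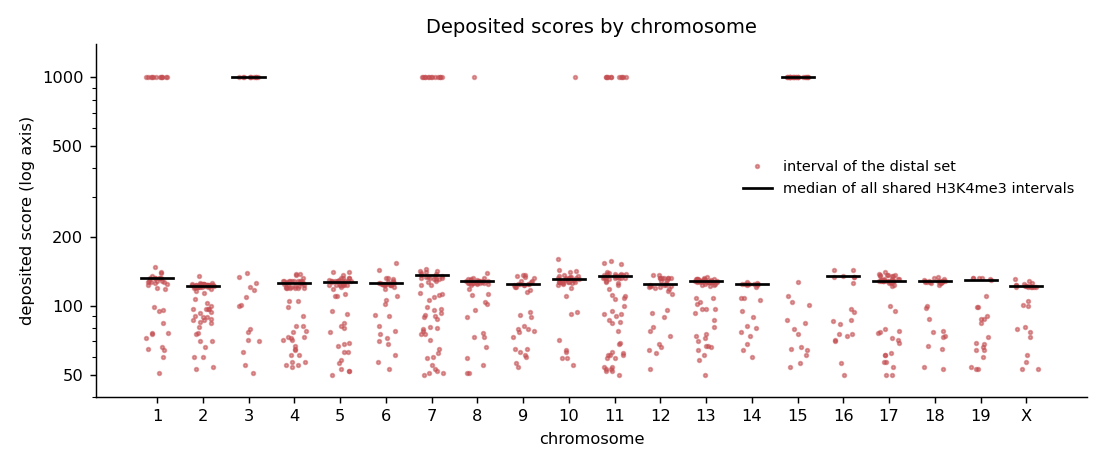
Deposited score of each distal H3K4me3 peak (points, log axis) by chromosome (x axis), with the median of all shared H3K4me3 intervals of that chromosome (black line). Many points lie under the line, and 71 peaks on 7 chromosomes sit at 1000.

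Some properties went with the score and others did not. A CpG-rich window was found in 62.2% (57.3 to 66.8) of the 399 low-scoring peaks and in 80.6% (76.6 to 84.0) of the other 433, and no annotated start was near 44.9% and 27.5% of them. A non-coding start of the basic set was near 29.1% and 30.7%, and the median distance to a coding start was 20027 and 20478 bp. Of the 298 peaks with no annotated start, 60.1% were in the lowest 25%. Whether the lowest-scoring peaks carry the mark in each library was not tested, since no value per library was used.

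The distal peaks lay on 20 chromosomes, with 0 on chromosome Y, and covered 1740500 bp. They made up 3.53% of the shared H3K4me3 intervals on chromosome 3 and 9.15% on chromosome 13, the lowest and highest shares. Width was 2000 bp in 436 peaks (52.4%) and 500 to 4500 bp in all. The median distance to a coding start was 20233 bp, from 1108 to 2240311 bp, and 97 peaks were over 100000 bp away. The nearest H3K27ac was a median of 47500 bp away.

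At the limits of the rule, the H3K27ac distance mattered most. Of 1506 distal intervals without H3K27ac overlap, 674 were removed by the 1000-bp limit, and 669 of these touched an H3K27ac peak. The 4 lists share their boundaries, so a touching interval can be the edge of a wider marked region. These 674 had a CpG-rich window in 4.15% (2.89 to 5.94) and a median width of 500 bp, whereas 71.4% of the 14 peaks with H3K27ac 1500 to 2500 bp away had one. The window is itself 500 bp long, so narrow intervals offer fewer places for it, and the effect of width was not tested. Median density was 1.0 CpG per 100 bp in the 674 and 3.65 in the distal peaks. At the coding-start limit, the 34 peaks over 1000 and up to 2000 bp away had a CpG-rich window in 70.6%, and the 51 excluded intervals at 1 to 1000 bp in 64.7%. At the width limit, 10 peaks spanned 4000 to 4500 bp and 12 otherwise eligible intervals reached 5000 bp.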

How the data were processed

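The 12 ChIP-seq libraries were represented by 4 peak lists, 1 per mark and oxygen level, with none for the inputs. According to the study's methods and the labels, the authors aligned reads to mm10 (bowtie2), removed duplicates (Picard) and ran chromstaR in its differential mode to call peaks. The deposited score (the authors' value per peak, definition not given in the sources used here) was used only to rank peaks. Touching intervals may follow from this joint model, in which all 4 lists share boundaries.

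Starts came from GENCODE M21 (basic and comprehensive) and RefSeq, and sequence from GRCm38.p6, whose chromosomes match mm10. Distances run from the nearest base of an interval, so 0 means a start inside it. Exons were those of the basic set. A peak that overlapped a coding gene but no such exon was counted as intronic, also at a gene edge. CpG-rich windows were searched in steps of 50 bp, and the printed 150-base windows avoid untranslated exons. Gene symbols were matched exactly. Python 3.11.15, numpy 2.4.6, pandas 2.3.3, scipy 1.17.1 and matplotlib 3.10.9 were used, the interval functions were checked on simulated intervals, and the sequence counts by a recount.

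The members and gene lists were chosen with earlier results of these data known. Peaks were named by rule: each at a start of a listed non-coding or imprinted gene, the 4 highest by score and width at non-coding starts, in coding genes and between genes, the 3 most masked, the 3 farthest from a start and the 6 highest-scoring at listed factor or tissue genes. A rule for the largest score difference between oxygen levels gave none. The further genes named (with over 1 peak, at miRNAs, or in full lists) were chosen after their values were seen. Alternatives changed the H3K27ac distance, the coding-start distance and source, the score filter, the width, the chromosomes and the definitions of each share. A few items covered by these rules are not reported here.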

Additional observations from a re-analysis of the deposited data

How the results depend on the processing

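Each value was recomputed under every alternative setting and compared with its 95% interval, or for the number of peaks with a factor of 1.5. Requiring no H3K27ac overlap alone, without the 1000-bp distance, changed all 5 results: 1506 peaks, 21.2% near a non-coding start, 63.7% in a coding gene, 41.5% with a CpG-rich window and a median masked share of 14.3%. The 674 intervals this adds are those beside H3K27ac described above, whose median width of 500 bp leaves fewer places for a CpG-rich window. Leaving out the lowest-scoring 25% of intervals gave 410 peaks, 79.5% of them with a CpG-rich window, and doing so within each chromosome, an alternative chosen after seeing the data, gave 433 peaks, with 80.6% CpG-rich and 48.7% in a coding gene. With coding starts of the comprehensive annotation, 34.4% were near a non-coding start and 29.3% in a coding gene, and adding RefSeq starts, also chosen after seeing the data, gave 28.2% in a coding gene. A non-coding start inside the interval was found for 26.8%, and 33.4% lay wholly inside a gene span. A CpG-rich window of 200 bp with at least 50% GC and a ratio of at least 0.6 was present in 91.5%. The other settings moved no value out of its interval: H3K27ac within 5000 bp, 2500 bp from coding starts, protein-coding transcripts only, no width limit, at least 1000 bp wide, autosomes only, a non-coding start within 2500 bp, and CpG windows outside masked bases.

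No paired analysis was possible because each list was made from both libraries of its group and holds no value per replicate, and for the same reason leaving out a library was not run. Depth is unknown, and an interval absent from a list cannot be told from one too weakly covered to be called.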

Other observations

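The coding genes with 2 distal peaks each were Bcor, Casz1, Celf4, E030030I06Rik, Gm20388, Kcng2, Pax5, Pdzd2, Ppfia3, Rap1gap2, Rnf220, Slc2a3, Sptbn4, Srrm3, Tacc1, Tet1, Tns1 and Ttbk1. Of the 832 distal peaks, 20 overlapped over 1 coding gene, and 8 touched another H3K4me3 interval.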
